A study of Mus musculus with 20 samples.

Results

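Malat1, Neat1, Meg3, Rian, Mirg, Miat and Snhg11 are 7 long noncoding RNAs, grouped here as nuclear RNAs and as partners of Tdp-43, to which binding was not measured. They were taken by gene symbol from 39174 genes in the files, a choice made with earlier results of these data known. The symbols match 8 rows, since Rian is listed a second time on an alternative scaffold where it is at 0 in all 20 libraries, and the other 7 rows are described here. The files type Rian as a processed transcript, Snhg11 as protein coding and the other 5 members as lincRNA. The libraries were made from total RNA of motoneurons isolated from spinal cords of CD-1 mouse embryos, enriched by panning for the neurotrophin receptor p75 and cultured in microfluidic devices built to let axons cross into another channel. Control cultures received the empty lentiviral vector and knockdown cultures the vector with a short hairpin RNA against Tdp-43. In the compartmentalized cultures CNTF was present on both sides and BDNF on the axonal side only, so that comparisons between compartments also compare media. There were 4 control and 6 knockdown somatodendritic libraries, and 4 control and 6 knockdown axonal libraries. The comparisons ask which of these nuclear RNAs are found in the axonal compartment, and whether their level in either compartment differs after depletion of Tdp-43.

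The members differ in their place and role within the nucleus. Malat1 is concentrated in nuclear speckles, which store splicing factors, Neat1 is the scaffold of paraspeckles, and Miat (also called Gomafu) forms a nuclear domain of its own in neurons. Meg3, Rian and Mirg are transcribed from the maternal copy of the imprinted region between Dlk1 and Dio3, where Rian hosts small nucleolar RNAs and Mirg hosts microRNAs. Snhg11 is a small nucleolar RNA host gene that is most active in neurons. Tdp-43 is a mainly nuclear RNA-binding protein that prefers UG repeats.

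The UG repeats of the members differed widely. In the longest annotated transcript of each gene (GENCODE M21, build GRCm38), the hexamer TGTGTG (DNA letters of the sense strand, overlapping matches counted, so that a long run gives several matches) occurred 53 times in Meg3, 48 times in Neat1 and 31 times in Miat, but 5 times in Mirg, 4 times in Snhg11, 3 times in Malat1 and 2 times in Rian. Per kb of transcript this is 3.64 in Meg3, 3.38 in Miat and 2.31 in Neat1, against 0.430 in Malat1 and 0.247 in Rian. Of 14656 tested genes with a transcript of at least 200 bases, 72.2% hold the hexamer, the median was 0.513 per kb, and 95.8% of them lay below Meg3 and 44.4% below Malat1. The longest uninterrupted TG run was 28 bases in Meg3, 24 bases in Neat1 and in Miat, and 6 bases in each of the other 4 members. Windows of 30 bases around the longest run show this contrast, with the run in capitals, for the 3 members with long runs and for Malat1 and Rian, whose levels carry the results below.
Meg3: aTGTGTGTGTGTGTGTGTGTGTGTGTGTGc
Neat1: gagTGTGTGTGTGTGTGTGTGTGTGTGgtg
Miat: tggTGTGTGTGTGTGTGTGTGTGTGTGcat
Malat1: tatagattgtagTGTGTGgttctcttttga
Rian: ccctattcagacTGTGTGctcaacgcaaca
The Meg3 window is chr12:109565124-109565153 on the plus strand in exon 5 of 5. The Neat1 window is chr19:5826024-5826053 and the Malat1 window chr19:5799696-5799725, both on the minus strand of a transcript with 1 exon. The Miat window is chr5:112213721-112213750 on the minus strand in exon 7 of 7, and the Rian window chr12:109646840-109646869 on the plus strand in exon 1 of 2. A match of letters is a description of the transcript and not a measured binding site.

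**Figure D1:**
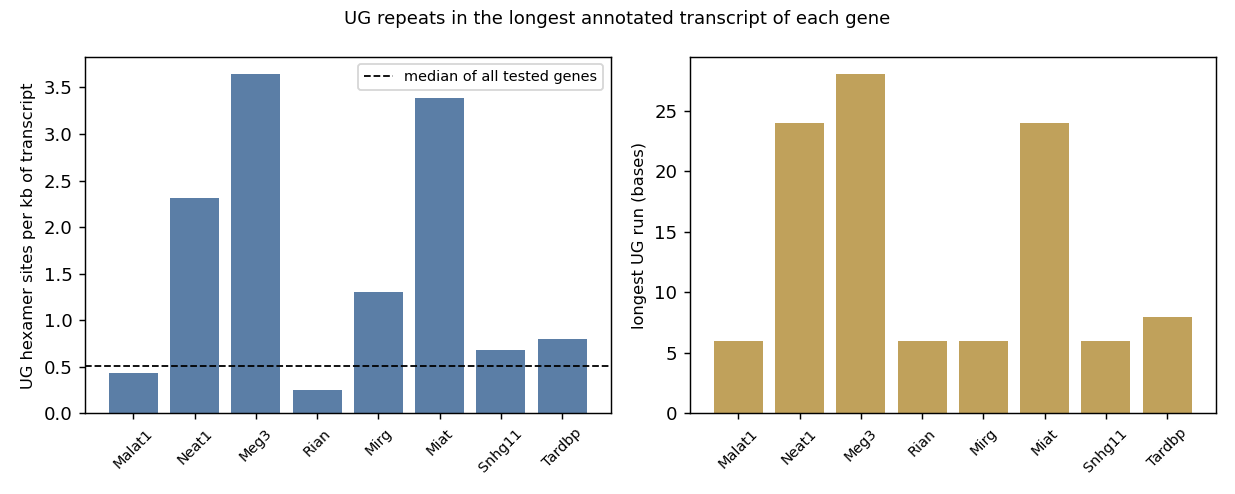
UG repeats of the 7 members and of Tardbp, the gene for Tdp-43, in the longest annotated transcript: hexamer matches per kb (left; dashed line, median of 14656 genes) and length of the longest uninterrupted run in bases (right). Meg3, Neat1 and Miat lie between 2.31 and 3.64 matches per kb with runs of 24 or 28 bases, and Malat1 and Rian lie below the median with runs of 6 bases.

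Levels are given as FPKM (fragments normalised to transcript length and to the mapped fragments of the library), each with a 95% interval from which an implied number of fragments was read. The relative depth obtained from these intervals ranged from 0.103 in axonal knockdown replicate 5 to 1 in somatodendritic control replicate 3, to which the others are set. Tardbp was at 19.04 to 30.8 FPKM in somatodendritic controls and at 0 to 8.54 FPKM after knockdown, a fall of -3.06 log2 ± 0.57 (SE, adjusted p = 0.0228, limma). In axons it was at 13.4 to 32.3 FPKM in controls and at 1.21 to 33.2 FPKM after knockdown (-1.71 ± 0.63, adjusted p = 0.427), and the library labelled axonal knockdown replicate 1 was the one at 33.2 FPKM, above every axonal control. Axonal libraries stood apart in 2 ways. Mitochondrially encoded genes took 33.0% to 47.7% of FPKM in control replicate 4 and knockdown replicates 2, 4, 5 and 6, against 8.88% to 14.96% in the other 15 libraries. The 10 pan-neuronal markers summed to 2355 and 2051 FPKM in axonal knockdown replicates 3 and 4, against 2418 to 2709 FPKM in somatodendritic controls and 656 to 1011 FPKM in the other 8 axonal libraries. Of the 11 motoneuron markers in the files, Mnx1, Chat and Isl2 were listed at 0 in all 20 libraries. The markers summed to 19.6 to 24.4 FPKM in somatodendritic controls and 16.8 to 32.7 FPKM in somatodendritic knockdown libraries. In axons the sums were 27.6 FPKM in control replicate 4, 5.59 to 9.73 FPKM in the other controls and 3.44 to 14.7 FPKM in knockdown libraries.

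By FPKM, a level per length of transcript, the members spanned a wide range. In the somatodendritic control libraries Malat1 was at 698 ± 120 FPKM (SD, n = 4), Rian at 644 ± 70.6, Meg3 at 183 ± 38.2, Snhg11 at 55.5 ± 5.95, Mirg at 36.1 ± 6.10 and Miat at 16.3 ± 2.51 FPKM. Malat1 and Rian overlapped in range, whereas each other neighbour in this order was separated from the next by a gap. Neat1 was lowest at 1.87, 0.471 and 2.44 FPKM in control replicates 1, 3 and 4, and it was listed at 0 in replicate 2. In axonal controls Malat1 (312 to 489 FPKM) stood clear of Rian (189 to 260 FPKM), while Meg3 (56.6 to 210 FPKM) overlapped Rian and the ranges of Snhg11, Mirg and Miat overlapped each other.

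**Figure D2:**
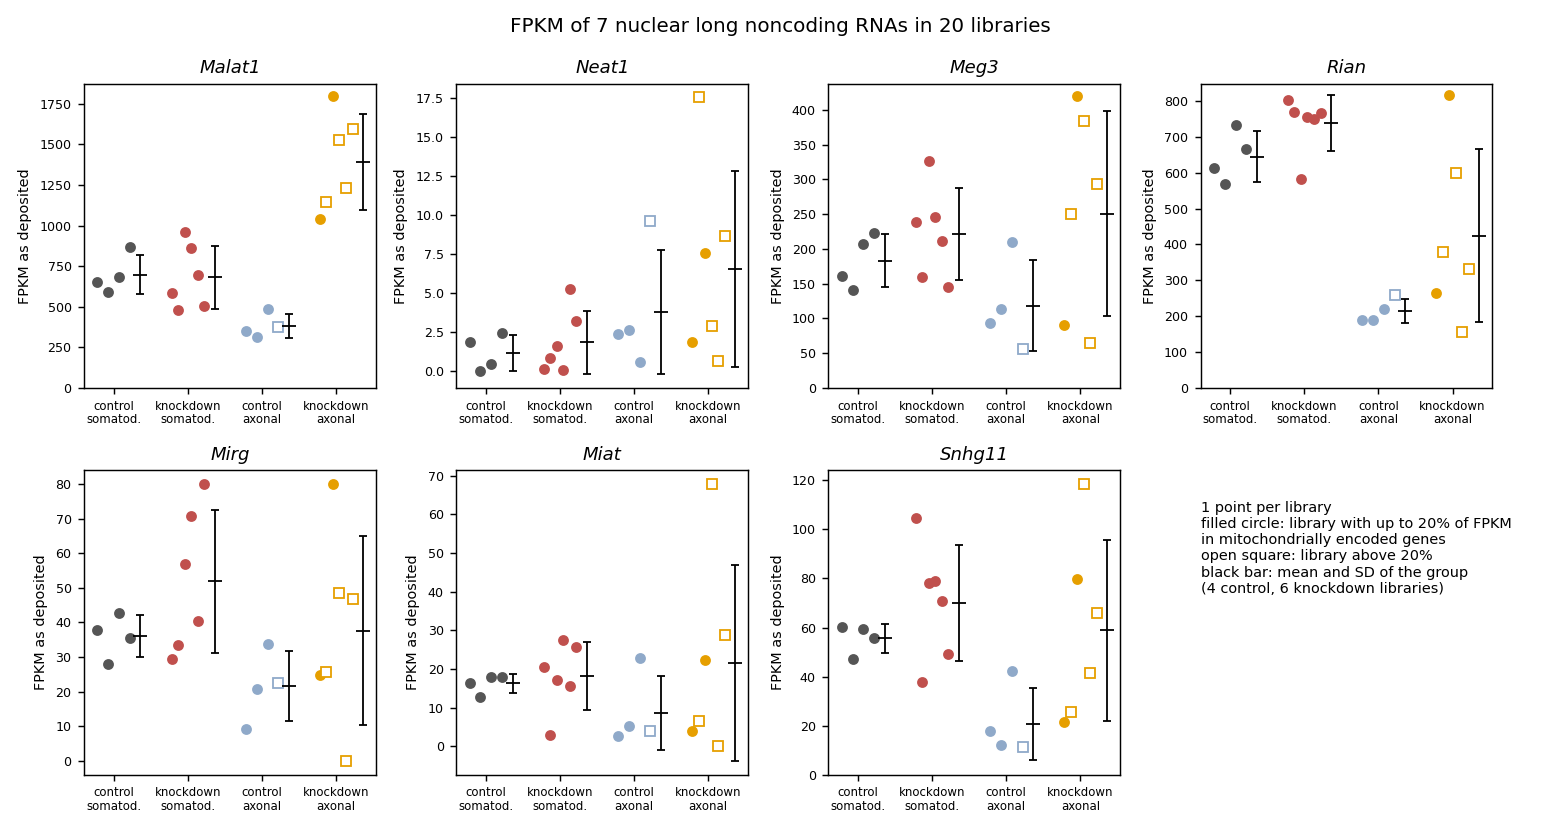
FPKM as deposited of the 7 members in each of 20 libraries (1 point per library; open squares, libraries with more than 20% of FPKM in mitochondrially encoded genes; black bars, mean and SD of 4 control or 6 knockdown libraries). The 6 axonal knockdown libraries of Malat1 lie between 1041 and 1800 FPKM, above the 312 to 489 FPKM of the axonal controls, and Rian lies lower in axonal than in somatodendritic control libraries.

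Malat1 (ENSMUSG00000092341, chr19:5795690-5802672, GRCm38) had the largest axonal difference between knockdown and control among the members. The axonal control replicates 1 to 4 stood at 352, 312, 489 and 376 FPKM, and in the 6 axonal knockdown libraries it was at 1041 FPKM in the lowest, 1381 FPKM in the median and 1800 FPKM in the highest. The 2 axonal groups did not overlap, and the lowest of the knockdown libraries was the one labelled replicate 1, in which Tardbp was high. These values rested on 44.7 to 548 implied fragments in the knockdown and 84.95 to 246 in the control libraries, and no other member had a higher lowest, median or highest number in axons.

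After scaling by the median of ratios, which corrects for the different overall level of the libraries, Malat1 was 2.52 times as high in knockdown as in control axons. The difference was 1.33 ± 0.29 on the log2(FPKM + 1) scale (SE, 4 against 6 libraries, 95% interval 0.71 to 1.95) with a limma p of 0.000323, which after Benjamini-Hochberg adjustment over 13958 genes gave 0.0739 and missed the threshold. The groups also did not overlap after scaling, in the higher direction, which was the case in 63 of the genes tested (0.451%). The median of all genes tested was -0.17. With FPKM as deposited the difference was 1.85 (adjusted p = 0.00377), and without axonal knockdown replicate 1 it was 1.46 (adjusted p = 0.0339). These were the only passes, 1 of 12 alternatives and 1 of 10 left-out libraries, with adjusted limma p up to 0.509 and 0.303. Quantile normalization gave 1.35 (adjusted p = 0.221). The call, but not the direction, thus turned on the scaling and on 1 library. No source says that replicates came from separate preparations, so that p-values measure the spread between these libraries only.

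The axonal difference of Malat1 had the same direction within each class of axonal libraries. Among the 5 axonal libraries of low mitochondrial share, the 3 control libraries were at 312 to 489 FPKM and the 2 knockdown libraries at 1041 and 1800 FPKM. Among the 5 of high share, the single control library was at 376 FPKM and the 4 knockdown libraries were at 1144 to 1596 FPKM. With the 5 libraries of high share left out the log2 difference was 1.11 (adjusted p = 0.509, 3 against 2 libraries), with the share as a covariate it was 1.196 (adjusted p = 0.0840), and without knockdown replicates 3 and 4 it was 1.25 (adjusted p = 0.190).

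In the somatodendritic compartment, which holds the cell bodies, Malat1 was not called. It was at 651, 588, 685 and 867 FPKM in control replicates 1 to 4 and at 478 FPKM in the lowest, 638 FPKM in the median and 959 FPKM in the highest of 6 knockdown libraries. The groups overlapped, and the log2 difference was -0.28 ± 0.19 (95% interval -0.69 to 0.13, adjusted p = 0.561, limma). Taken over all 20 libraries, the limma interaction term of Malat1, its axonal minus its somatodendritic change, was 1.59 ± 0.32 (95% interval 0.92 to 2.26, adjusted p = 0.0687). It passed the threshold with FPKM as deposited (1.93, adjusted p = 0.00666) and without any 1 of 3 libraries, somatodendritic knockdown replicate 3, axonal control replicate 3 or axonal knockdown replicate 1 (1.71 to 1.74, adjusted p = 0.0158 to 0.0276).

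Compared between compartments, Malat1 was not called in control cultures (-0.28 ± 0.20 log2, adjusted p = 0.433) and was higher in axons of knockdown cultures (1.31 ± 0.23, 95% interval 0.82 to 1.80, adjusted p = 0.0168, 2.48-fold). All 6 axonal knockdown libraries lay above all 6 somatodendritic ones. The control difference depended on the scaling. With FPKM as deposited, the 4 axonal libraries lay below the 4 somatodendritic ones at a difference of -0.87 (adjusted p = 0.0145), while the median over all genes tested was -0.48. The knockdown difference stayed between 1.03 and 1.43 under every alternative and every left-out library, and missed the threshold under 5 alternatives: quantile normalization (adjusted p = 0.0543), the replicate number as a block (adjusted p = 0.0507), shallow libraries, under 0.5 in relative depth, left out (adjusted p = 0.134), the 5 libraries of high mitochondrial share left out (adjusted p = 0.153) and that share as a covariate (adjusted p = 0.238).

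Ratios of 2 nuclear RNAs in the same library do not depend on scaling. Malat1 over Rian was 0.936 to 1.303 in somatodendritic controls, 0.623 to 1.64 in somatodendritic knockdown, 1.45 to 2.21 in control axons and 2.21 to 7.92, with a median of 3.48, in knockdown axons. Of the 10 axonal libraries, 9 had a higher ratio than every somatodendritic library, and axonal control replicate 4 (1.45) lay below somatodendritic knockdown replicate 3 (1.64). The ranges of axonal control and axonal knockdown libraries overlapped slightly, with control replicate 3 (2.2127) above knockdown replicate 3 (2.208). Malat1 over Meg3 ranged from 2.33 to 6.65 in control axons and from 3.98 to 18.99 in knockdown axons. Malat1 over Snhg11 ranged from 11.5 to 33.8 and from 12.9 to 48.4. The axonal groups overlapped in both of these ratios as well.

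**Figure D3:**
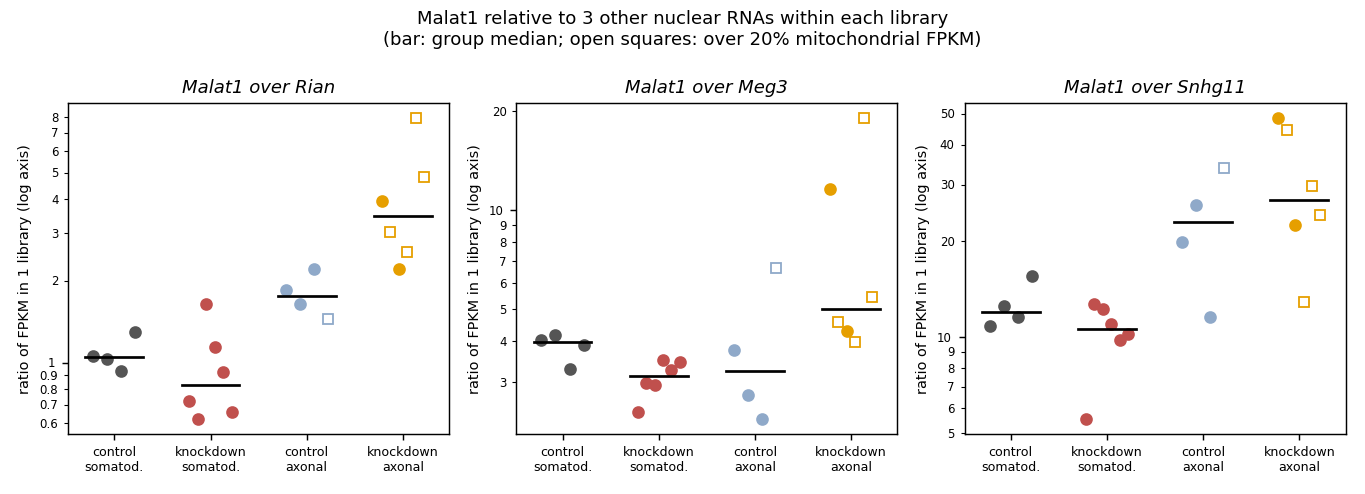
Malat1 FPKM divided by Rian, Meg3 or Snhg11 FPKM of the same library (log axis; 1 point per library, bar at the group median, open squares for libraries with over 20% mitochondrial FPKM). The median ratio to Rian is 1.05, 0.826, 1.75 and 3.48 in control somatodendritic, knockdown somatodendritic, control axonal and knockdown axonal libraries.

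Markers of dividing and nonneuronal cells were present in axonal libraries, some at higher and some at lower sums than in somatodendritic ones. The 8 cell division genes summed to 127 to 236 FPKM in control axons and 31.3 to 372 FPKM in knockdown axons, against 66.6 to 91.5 FPKM in somatodendritic controls. The 8 fibroblast and meningeal markers summed to 125 to 534 FPKM in control axons (median 267) and 89.8 to 687 FPKM in knockdown axons (median 510), against 15.4 to 57.3 FPKM in somatodendritic controls. By group mean, most of this was 1 gene, Fn1 (fibronectin), at 262 FPKM in control and 369 FPKM in knockdown axons. The next marker, Col1a1, was at 26.4 and 30.9 FPKM. The 10 astrocyte and progenitor markers summed to 609 to 937 FPKM in control axons and 351 to 1263 FPKM in knockdown axons, against 445 to 618 FPKM in somatodendritic controls. Of these 10, Vim (2.19 log2, adjusted p = 0.000953) and Nes (3.51, adjusted p = 0.000953) were higher in control axons (limma), against 4.19% of all genes. Both are intermediate filament genes of progenitors. Gfap and Aqp4 had negative differences at an unadjusted p under 0.05 (-2.03 and -1.29), against 10.7% of all genes, and the list median was -0.11. In this comparison 3 of 8 cell division genes and 2 of 4 fibroblast markers tested were called higher. Lower calls were 1 of 4 microglia markers and 1 of 8 oligodendrocyte and Schwann cell markers tested, against 2.56% of all genes. The 6 microglia markers summed to 0 to 4.52 FPKM in control axons and 0 to 51.8 FPKM in knockdown axons, against 17.3 to 37.8 FPKM in somatodendritic controls. The 10 oligodendrocyte and Schwann cell markers summed to 17.4 to 64.4 FPKM and 13.9 to 122 FPKM, against 61.1 to 120.4 FPKM. Between knockdown and control axons, 0 of 8 cell division genes, 0 of 6 fibroblast markers, 0 of 3 microglia markers, 0 of 8 oligodendrocyte and Schwann cell markers and 0 of 10 astrocyte and progenitor markers that were tested were called by limma, with 1, 0, 0, 0 and 2 lower at an unadjusted p under 0.05. Over all genes 0.401% were called and 6.46% were lower at an unadjusted p under 0.05, and the median of the cell division genes was -0.97, against -0.17 over all genes. The part of such cells in the Malat1 level was not tested, and in bulk RNA fewer cells of a type and less RNA per cell cannot be told apart.

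Rian (ENSMUSG00000097451, chr12:109603940-109661716), the small nucleolar RNA host of the imprinted region, was the only member called between compartments in control cultures. It was at 612, 568, 732 and 665 FPKM in somatodendritic control replicates 1 to 4 and at 189, 189, 221 and 260 FPKM in axonal control replicates 1 to 4. The groups did not overlap, and the axonal mean was 33.3% of the somatodendritic mean as deposited. After scaling Rian was lower in control axons by a log2 difference of -1.0 ± 0.17 (95% interval -1.37 to -0.63, adjusted p = 0.00690, limma), a call that was kept under all 11 alternatives and with any 1 of the 8 libraries left out (adjusted p = 0.000887 to 0.0344).

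In knockdown cultures the axonal values of Rian spread far more. They ran from 156 FPKM in replicate 5 through a median of 355 FPKM to 815 FPKM in replicate 3, against 583, 760 and 803 FPKM as the lowest, median and highest of the somatodendritic knockdown libraries. Axonal replicate 3 (815 FPKM) lay above the somatodendritic group, replicate 4 (598 FPKM) within it and the other 4 below it, and the log2 difference was -0.73 ± 0.30 (adjusted p = 0.226). Without axonal knockdown replicates 3 and 4, the libraries of high neuronal marker sum, it was -1.13 (adjusted p = 0.0197). Between knockdown and control Rian was called in neither compartment. The somatodendritic difference was -0.02 ± 0.11 (95% interval -0.27 to 0.23) and the axonal one 0.27 ± 0.39 (95% interval -0.55 to 1.09), which ran from 0.12 to 0.51 when 1 library was left out (without knockdown replicates 3 and 5).

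Meg3, a maternally expressed RNA with the most UG matches among the members, was not called in any comparison. It was at 161, 141, 207 and 222 FPKM in somatodendritic controls and at 145 FPKM in the lowest, 225 FPKM in the median and 327 FPKM in the highest somatodendritic knockdown library, with a log2 difference of 0.03 ± 0.21 (95% interval -0.41 to 0.48). In axons it was at 93.4, 114, 210 and 56.6 FPKM in controls and from 64.9 FPKM through a median of 272 FPKM to 420 FPKM in knockdown libraries. Knockdown replicates 2, 3, 4 and 6 were above every axonal control and replicates 1 and 5 were within the control range, and the difference was 0.41 ± 0.55 (95% interval -0.75 to 1.57, adjusted p = 0.866). It ran from 0.087 without control replicate 4 to 0.77 without control replicate 3 when 1 library was left out. Between compartments the differences were -0.17 ± 0.36 in control (adjusted p = 0.825) and 0.18 ± 0.42 in knockdown cultures (adjusted p = 0.875), and their sign turned under several alternatives.

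Mirg, the microRNA host, was at 37.7, 28.1, 42.8 and 35.5 FPKM in somatodendritic control libraries and between 29.4 and 80.0 FPKM in somatodendritic knockdown libraries. In axons it was at 9.14, 20.6, 33.8 and 22.6 FPKM in control libraries and at 24.8 to 80.0 FPKM in 5 knockdown libraries, while replicate 5, the shallowest, listed it at 0. The groups overlapped in each comparison. After knockdown its log2 difference was 0.22 ± 0.30 in somata and -0.35 ± 0.89 in axons (adjusted p = 0.792 and 0.930), and the axonal sign turned when replicate 5 was left out (0.52). The somatodendritic value ran from 0.070 without knockdown replicate 6 to 0.38 without knockdown replicate 1.

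Snhg11 (chr2:158375638-158386145) had a lower axonal level in control cultures that did not pass the adjusted threshold. It was at 60.2, 47.1, 59.2 and 55.6 FPKM in somatodendritic control replicates 1 to 4 and at 17.7, 12.02, 42.4 and 11.1 FPKM in axonal ones. The groups did not overlap as deposited and overlapped after scaling, and the log2 difference was -1.01 ± 0.40 (95% interval -1.89 to -0.13, adjusted p = 0.165, limma). Axonal control replicate 3 stood highest, and without it the difference was -1.44 (adjusted p = 0.0147), while with FPKM as deposited it was -1.57 (adjusted p = 0.0190). In knockdown axons Snhg11 ran from 21.5 FPKM through a median of 53.7 FPKM to 118 FPKM, which overlapped the control axons, with a difference of 0.91 ± 0.54 against them (95% interval -0.23 to 2.06, adjusted p = 0.686). It was 0.24 without the 5 libraries of high mitochondrial share, 0.49 without the 2 of high neuronal marker sum and 1.42 with FPKM as deposited.

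Miat and Neat1 had few implied fragments, which reflect wide FPKM intervals and are not counts, and their differences carry wide intervals. Miat rested on at most 5.78 implied fragments in any library and was at 16.4, 12.7, 18.0 and 18.0 FPKM in somatodendritic controls and 2.63, 5.19, 22.8 and 3.96 FPKM in axonal controls. Axonal control replicate 3 lay above all somatodendritic controls and the other 3 below them, and the compartment difference was -0.74 ± 0.55 (adjusted p = 0.468), or -1.37 without that library (adjusted p = 0.0403). Its axonal knockdown values ran from listed at 0 in replicate 5 to 67.8 FPKM in replicate 4, with a log2 difference from control axons of 0.18 ± 0.95 (95% interval -1.84 to 2.21). Neat1 rested on at most 9.08 implied fragments. It was at 2.41, 2.65, 0.596 and 9.61 FPKM in axonal control libraries and between 0.641 and 17.6 FPKM in axonal knockdown libraries. Its log2 difference between axons and somata was 1.35 ± 0.67 in control and 1.34 ± 0.65 in knockdown cultures (adjusted p = 0.258 and 0.318), the largest positive compartment difference of the members in control cultures, but groups overlapped in both.

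Knockdown against control in the somatodendritic compartment gave 0 of 7 members at an adjusted limma p under 0.05, against 0.974% of 13762 genes, 0 at an unadjusted p under 0.05, against 13.8%, and 0 with groups that did not overlap after scaling, against 5.49%. In axons the counts were 0 (0.401% of all genes), 1 (8.6%) and 1 (2.47%), and the 1 member was Malat1 in both. Axonal against somatodendritic libraries gave 1 (6.74%), 2 (22.8%) and 1 (16%) in control cultures, which are Rian, with Snhg11 at the unadjusted threshold. In knockdown cultures the counts were 1 (1.42%), 2 (16.7%) and 1 (2.47%), which are Malat1, with Rian at the unadjusted threshold. The difference of the knockdown change between compartments gave 0 members (0.0711% of 14062 genes) and 1, Malat1, at an unadjusted p under 0.05 (5.61%).

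**Figure D4:**
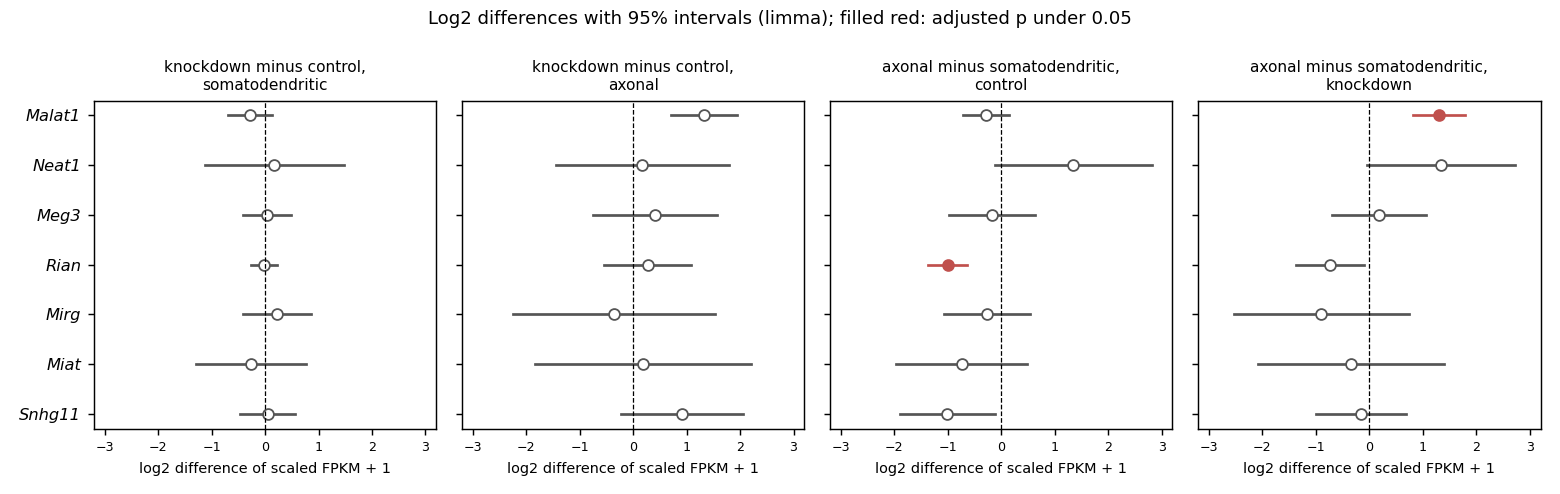
Log2 differences of scaled FPKM + 1 with 95% intervals for the 7 members in 4 comparisons (limma; filled red, adjusted p under 0.05 over all genes tested). Malat1 is at 1.33 in axons after knockdown and at 1.31 in axons against the somatodendritic compartment of knockdown cultures, Rian is at -1.0 in axons against the somatodendritic compartment of control cultures, and the intervals of Neat1, Mirg and Miat include 0 in every comparison.

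After knockdown the median log2 difference of the 7 members was 0.03 in somata and 0.27 in axons, and -0.28 and -0.16 between compartments in control and knockdown cultures. Over all genes tested the medians were -0.13, -0.17, -0.02 and -0.05.

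The imprinted region between Dlk1 and Dio3 on chromosome 12 holds 96 rows of the files, among them 59 microRNA and 23 small nucleolar RNA genes. Of these rows 9 to 11 passed the filter on low values in each comparison, and only Rian was called, 1 of 9 between compartments in control cultures, where 2.56% of all genes were called lower. The protein-coding genes of the paternal copy were low. Dlk1, a Notch-like membrane protein, had group means of 5.72 to 18.95 FPKM, Rtl1, a retrotransposon-derived gene, 2.15 to 9.96 FPKM, and Dio3, a thyroid hormone deiodinase, 0 to 0.316 FPKM. After knockdown Rtl1 had a log2 difference of 1.13 ± 0.79 in axons (adjusted p = 0.733) and Dlk1 of 0.41 ± 0.92 (adjusted p = 0.925). Within the span of Rian lie 18 other rows, of which 4 were above 0 in any library, within that of Meg3 5, of which 2 were above 0, and within that of Mirg 14, all microRNAs, of which 0 were. Short RNAs inside a long gene share its positions, so that fragments of a host and of its small RNAs may not be told apart.

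**Figure D5:**
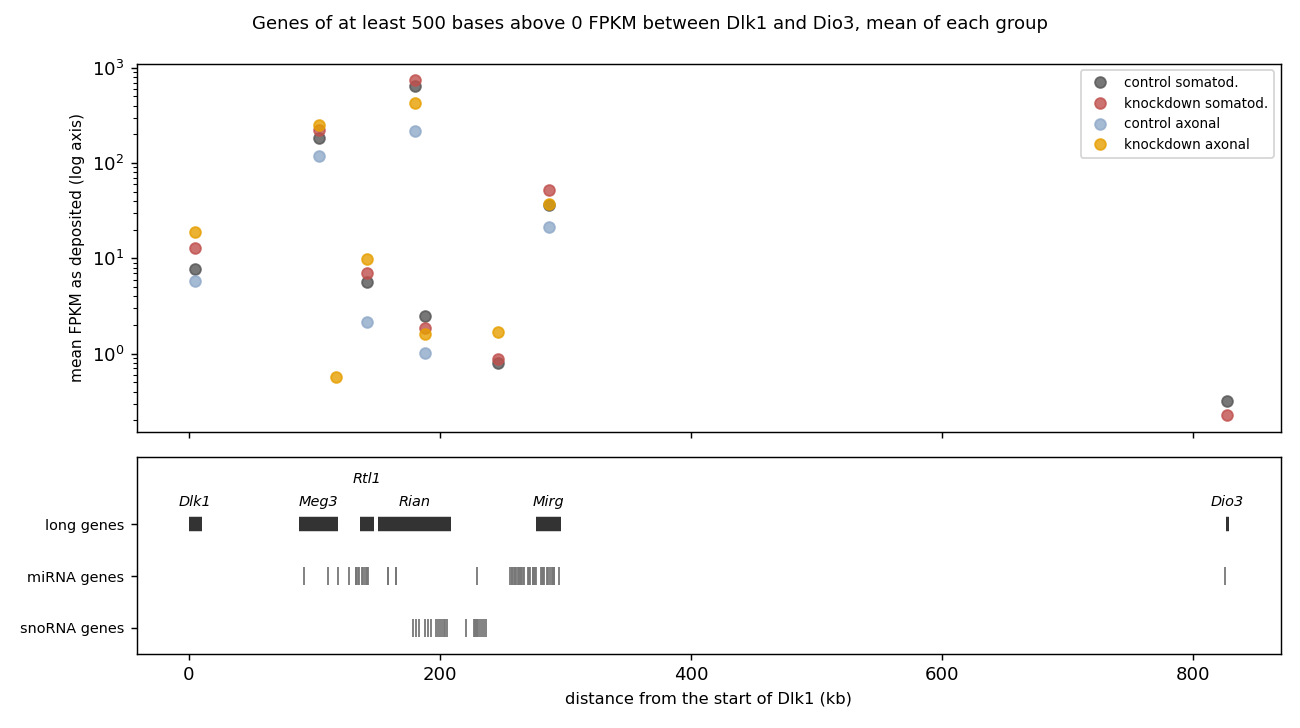
Mean FPKM of each group (top, log axis, means at 0 not drawn) for genes of at least 500 bases between Dlk1 and Dio3, by distance from the start of Dlk1 in kb, with the positions of microRNA and small nucleolar RNA genes (bottom). Meg3 and Rian exceed 100 FPKM in each of the 4 groups, and Rian is lowest in control axons at 215 FPKM.

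Other nuclear RNAs were compared in the same way. Of 10 further nuclear long noncoding RNAs in the files, 9 were tested and 0 were called by limma in any of the 5 comparisons, in which 0.0711% to 6.74% of all genes were called. At an unadjusted p under 0.05 the counts were 0 to 2 of 9, against 5.61% to 22.8% of all genes. Rmst, a neural long noncoding RNA that works with Sox2, had group means of 19.3 FPKM in control and 79.9 FPKM in knockdown axons (log2 difference 1.52 ± 0.54, adjusted p = 0.403), and 28.0 FPKM in knockdown somata (1.59 ± 0.42 for axons, adjusted p = 0.0726). Xist, which coats the inactive X chromosome, had a compartment difference of 0.72 ± 0.28 in knockdown cultures (adjusted p = 0.199). Gm26917, the most abundant of the list, differed by 0.33 ± 0.13 in the somatodendritic compartment after knockdown (adjusted p = 0.269). Its group means of 5204 to 11264 FPKM stood far above those of the other genes of the list, which reached at most 79.9 FPKM. The libraries also held ribosomal RNA, and the origin of the Gm26917 reads was not tested. The median of the 9 genes in axons after knockdown was 0.71, against -0.17 over all genes.

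The 3 nuclear RNAs made by RNA polymerase III also had lower values in control axons, and 2 were called, against 2.56% of all genes called lower. Rn7sk, the RNA that holds the elongation factor P-TEFb inactive, was lower in control axons by -1.20 ± 0.19 (adjusted p = 0.00535), with means of 13511 FPKM in somatodendritic and 4006 FPKM in axonal libraries. Rmrp, the RNA of RNase MRP, was lower by -0.95 ± 0.16 (adjusted p = 0.00766), and Rpph1, the RNA of RNase P, had a difference of -0.83 ± 0.25 (adjusted p = 0.0704). Rmrp also fell after knockdown in the somatodendritic compartment (-1.29 ± 0.17, adjusted p = 0.00197). Neuronal mRNAs were lower in control axons as well, with 8 of 10 pan-neuronal markers called against the same 2.56%, among them Stmn2, a microtubule regulator, at -1.31 ± 0.16 (adjusted p = 0.00180). Of 12 small nucleolar RNA hosts and cytoplasmic long noncoding RNAs in the files, 9 to 11 were tested in each comparison and 0 were called by limma, with 0 to 2 at an unadjusted p under 0.05, against the same shares of all genes as for the other long noncoding RNAs. Gas5, the most abundant, had a difference of 1.05 ± 0.42 between knockdown compartments (adjusted p = 0.221).

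Genes for proteins of the nuclear bodies that Neat1 and Malat1 belong to were also tested. Of 24 genes for paraspeckle proteins, which assemble on Neat1, 1 fell after knockdown in the somatodendritic compartment, Hnrnpa1 (-1.26 ± 0.21, adjusted p = 0.0129, from a mean of 35.3 to 16.5 FPKM), against 0.756% of all genes called lower. At an unadjusted p under 0.05, 5 were lower and 1 higher in that comparison, against 9.22% and 4.59% of all genes. In axons 0 were called (0.401% of all genes) and 3 were lower at an unadjusted p under 0.05 (6.46%). Of the most abundant of these genes, Hnrnpk had a somatodendritic difference of -0.08 ± 0.18 (adjusted p = 0.886) and Nono, a core paraspeckle protein gene, of 0.36 ± 0.12 (adjusted p = 0.171). In control cultures Safb2 (1.04 ± 0.25, adjusted p = 0.0322) and Rbm3 (0.77 ± 0.21, adjusted p = 0.0494) were higher in axons, 2 of 24 against 4.19% of all genes called higher. Of 28 genes for nuclear speckle proteins, where Malat1 resides, 1 fell after knockdown in the somatodendritic compartment, the splicing factor gene Srsf3 (-1.09 ± 0.22, adjusted p = 0.0409), with 3 lower and 3 higher at an unadjusted p under 0.05, against the same shares of all genes. In axons 0 of 27 tested were called and 2 were higher at an unadjusted p under 0.05 (2.14% of all genes), and Acin1, the most abundant, had a difference of 0.38 ± 0.34 (adjusted p = 0.788).

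The genes whose pattern over the 20 libraries was most like that of each member were sought among 8839 candidates averaging 5 FPKM or more, by Pearson r of scaled log2(FPKM + 1). These values describe 20 libraries that differ together in compartment, condition and depth. Rian was most like Cadps, a vesicle priming factor (0.94), Gabbr1, a GABA receptor subunit (0.93), and Scg5, a secretory granule protein (0.92). Mirg was most like Tmem132a (0.93), the kainate receptor gene Grik5 (0.93) and the semaphorin receptor gene Plxna3 (0.92). Malat1 was most like Luc7l2, a splicing factor (0.78), Rbm4b, an RNA-binding protein (0.77), and Mcf2l (0.76), and its r with Rian was -0.21. Meg3 was most like Mau2 (0.80), Exosc3 (0.80) and Gm27000 (0.79), and among the members it was most like Miat (0.78). Miat was most like Tmem108 (0.84), B4galt3 (0.83) and Brinp3 (0.82), Snhg11 most like Gm27000 (0.83), Cacna1e (0.80) and Dmxl2 (0.80), and Neat1 most like Akap13 (0.74), Rbm6 (0.74) and Utrn (0.73).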

How the data were processed

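RNA-seq libraries of total RNA, amplified by PCR before sequencing, were analysed. The authors deposited FPKM per gene and library, made with Cufflinks 2.2.1 on GRCm38 (FastQC 0.10.1 is also named in the submitters' processing notes); the version of the aligner is not given in the sources used here. Read totals are not used here. Implied fragments were derived from the half-width of each 95% interval, taken as 2 Poisson SDs. The interval may also carry uncertainty among isoforms, so that these numbers describe interval width and are not counts. Meg3 at 64.9 FPKM in axonal knockdown replicate 5, for example, gave 0.973. Relative depth was estimated over 680 genes whose implied fragments exceeded 3 throughout.

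FPKM were scaled by the median of ratios, within a compartment for knockdown against control and over 4577 genes of at least 1 FPKM in all 20 libraries for the other comparisons. Tests used genes averaging 1 FPKM or more, on log2(FPKM + 1), in limma 3.58.1 in R 4.3.3 (lmFit, eBayes with trend) with Benjamini-Hochberg adjustment across the whole table. Log2 changes on this scale understate changes of low genes. Values up to 0.001 FPKM are called listed at 0.

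The members and gene lists were chosen with earlier results of these data known. The naming rule covers the members, Tardbp, the called and the 3 most abundant genes of each list, Dlk1, Rtl1 and Dio3, and the 3 most similar genes of each member. The text names only some of the list genes that the rule covers. It also names Mnx1, Chat, Isl2, Gfap and Aqp4, which the rule does not cover. The alternatives left FPKM unscaled, normalized by quantiles, moved the pseudocount to 0.1 or 5, changed the filter, weighted the libraries, added a replicate block, set a depth limit or dropped each library. Leaving out 5 axonal libraries of high mitochondrial share (over 20%) or 2 of high neuronal marker sum (over 2000 FPKM), and that share as a covariate, were chosen after seeing the data. Transcripts came from GENCODE M21. Other software was Python 3.11.15, numpy 2.4.6 and pandas 2.3.3 and matplotlib 3.10.9.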

Additional observations from a re-analysis of the deposited data

Results flagged for a closer look

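Of 28 groups of member values, 2 held a library far from the others of its group, where chance gives about 1 in 20. Rian was at 583 FPKM in somatodendritic knockdown replicate 3, below the other 5 libraries of that group. Miat was at 22.8 FPKM in axonal control replicate 3, above the other 3 libraries of that group.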

How the results depend on the processing

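Rian in control axons kept its call under all 11 alternatives and each left-out library. Over the 7 members and all comparisons, Rian included, 376 of 420 leave-one-out values and 342 of 394 others had the direction and side of the threshold reported above; those that did not are given here or beside their results, and the cause was not tested. Same-numbered libraries did not deviate together (correlations from -0.06 to 0.09, none of 18 pairs over 0.1, 5 best with their own number). A pairing by number was thus not detected, which in groups of 4 or 6 libraries does not show that it is absent. With the replicate number as a block, the counts of called genes in the order somatodendritic knockdown, axonal knockdown, control compartments, knockdown compartments and interaction were 18, 35, 442, 22 and 6, with Neat1 at -0.39 in the somatodendritic and Mirg at 0.41 in the axonal knockdown comparison.

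For somatodendritic knockdown, 233 genes were called with FPKM as deposited, 212 with a pseudocount of 5, 432 with array weights and 58 to 198 without 1 library; Rian was at 0.19 as deposited and Neat1 at -0.13 with weights. Without 1 library, Rian ran from -0.064 to 0.041, Neat1 from -0.16 to 0.45, Meg3 from -0.095 to 0.13, Miat from -0.42 to 0.14 and Snhg11 from -0.068 to 0.20. For axonal knockdown, 30 genes were called with a pseudocount of 0.1, 87 with weights and 37 to 70 without 1 library. Mirg was at 0.13 as deposited, 0.25 with weights, 0.59 without libraries under 0.5 in relative depth (the depth limit), 0.50 without the 5 libraries of high mitochondrial share and 0.28 with that share as a covariate. Miat was at -0.28 with a pseudocount of 0.1, -0.24 without those 5 libraries and -0.65 without the 2 of high neuronal marker sum. Neat1 was at -0.19 with the covariate, Meg3 at -0.17 without the 5 and -0.016 without the 2, and Rian at -0.12 without the 2. Without 1 library, Mirg ran from -0.70 to 0.52, Miat from -0.34 to 0.85 and Neat1 from -0.26 to 0.67.

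Between control compartments, 2055 genes were called as deposited, 1554 without the 5 libraries, 1576 with the covariate and 363 to 1556 without 1 library. Meg3 was at 0.16 without the 5 and 0.076 with the covariate, and without 1 library it ran from -0.53 to 0.16 and Mirg from -0.55 to 0.080. Between knockdown compartments, 389 genes were called with quantile normalization, 77 with a pseudocount of 0.1, 57 with any value above 0, 417 with weights, 78 with the depth limit, 21 without the 5 libraries, 2 with the covariate, 1089 without the 2 and 45 to 456 without 1 library. Meg3 was at -0.072 as deposited, -0.022 with quantile normalization, -0.16 without the 5 and -0.24 without the 2, Mirg at 0.13 with the depth limit and 0.29 with the covariate, and Miat at 0.17 with the depth limit. Without 1 library, Meg3 ran from -0.029 to 0.51, Mirg from -1.19 to 0.012, Miat from -0.90 to 0.35 and Snhg11 from -0.44 to 0.11.

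For the interaction, Neat1 was at 0.28 as deposited, 0.081 with quantile normalization, 0.048 with a pseudocount of 5, 0.55 with weights, 0.60 with the depth limit, 0.12 without the 5 and 0.034 without the 2. Mirg was at 0.10 with weights, 0.43 with the depth limit, 0.17 without the 5 and 0.079 with the covariate. Miat was at -0.023 with a pseudocount of 0.1, -0.089 without the 5 and -0.45 without the 2, Meg3 at -0.32 and -0.057 likewise, and Rian at -0.11 without the 2. Without 1 library, Neat1 ran from -0.47 to 0.49, Miat from -0.14 to 1.07 and Mirg from -0.98 to 0.25. Neat1 and Miat rest on at most 9.08 and 5.78 implied fragments, and in axonal knockdown replicate 5 Meg3 and Rian rest on 0.973 and 2.07.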
